A study of Homo sapiens with 6 samples.

Results

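Integrin and laminin chain genes encode the receptor subunits by which cells hold on to the extracellular matrix and the chains of the matrix protein that several of those receptors bind. They were described here in H661 cells after SALL4 knockdown. The members were taken by gene symbol, as every ITGA, ITGB, LAMA, LAMB and LAMC gene with a probe set of its own on the array, and the integrin-binding and integrin-like genes ITGB1BP1, ITGB1BP2, ITGB3BP and ITGBL1 were left out. This gave 35 of the 18404 genes of the series, of which 25 encode integrin chains and 10 laminin chains. ITGA1 shares its probe set with PELO and was not used, and LAMA3 is not analysed here.

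An integrin is a pair of an alpha and a beta chain, both of which cross the plasma membrane. The alpha chain largely sets which ligand is bound, and the beta chain recruits talin, kindlin and other adaptors that couple the receptor to actin. A laminin is a trimer of an alpha, a beta and a gamma chain. It is the main organising protein of basement membranes, on which the airway and alveolar epithelia of the lung rest.

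H661 is an established cell line from a human large cell carcinoma of the lung. The cells had been transduced with lentivirus that carried a scrambled shRNA (Scr-sh, 3 arrays) or a SALL4 shRNA (SALL4-sh, 3 arrays), and no other agent is named in the labels. Each arm thus rests on a single hairpin in a single line, and the sources used here do not say whether cultures were grown separately for each array, so that the p-values rest on a spread between samples that may be technical only. RNA was hybridised to an Affymetrix array, and the values are normalized intensities on a linear scale in which nothing lies below 8. At this floor stood 38.8% to 40.4% of the probe sets of an array, and differences below it cannot be seen. Log2 values correlated at 0.969 to 0.980 within a group and at 0.955 to 0.965 between groups. SALL4 itself read 126, 104 and 130 in Scr-sh and 33.6, 31.9 and 26.5 in SALL4-sh, 74.4% lower on average (log2 fold change -1.97, limma adjusted p = 0.000644). An array averages over all cells of a sample, so fewer cells of a type and less RNA per cell cannot be told apart. Of 6 epithelial markers, EPCAM (746 ± 154 in Scr-sh and 996 ± 139 in SALL4-sh, SD, n = 3) and KRT18 (56.1 ± 18.3 and 41.7 ± 14.3) were not called, and CDH1 was higher (9.07 ± 1.31 and 16.9 ± 0.657, limma adjusted p = 0.00965). EPCAM and KRT18 have 2 probe sets each, and the values given are those of the brighter one. When all probe sets of a gene were averaged, 1 of the 6 markers was called higher and 1 lower. Of all 13803 genes tested in that way, 833 were higher and 770 lower. KRT7, KRT8 and KRT19 averaged between 9.01 and 13.9 in both groups without a call, and the lung factor NKX2-1 averaged 12.4 and 14.3.

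After SALL4 knockdown, 3 laminin chains and 2 integrin alpha chains were lower and 1 integrin beta chain was higher. The genes that fell were LAMC1, LAMB1, LAMA4, ITGA6 and ITGA5, each to between 0.364 and 0.493 of its Scr-sh level, and the gene that rose was ITGB8, to 2.04 times its Scr-sh level. LAMA4, LAMB1 and LAMC1 encode an alpha, a beta and a gamma chain that assemble into a trimer found in the basement membranes of vessels and muscle. ITGA6 encodes the alpha chain of laminin receptors and ITGA5 that of the classical fibronectin receptor, and ITGB8 encodes the beta chain that pairs with ITGAV in a receptor that activates latent TGF-beta.

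Genes were compared with limma on log2 intensity. A filter at the 25th percentile of mean intensity kept 13803 genes, and a gene was called at a Benjamini-Hochberg adjusted p under 0.05 over all of them. Of the 35 chain genes 24 passed this filter, each with both of its group means above the limit. Of these 24, 5 (20.8%) were called lower and 1 (4.17%) higher, and of all genes tested 5.54% were called lower and 5.95% higher. Groups were fully apart, with SALL4-sh the lower, for 8 of the 24 (33.3%), against 13.1% of all genes tested, and with SALL4-sh the higher for 1 (4.17%), against 15.7%. The median log2 fold change of the 24 was -0.17, and that of all genes tested was 0.02. The number of calls depended on the filter. When no gene was left out, LAMC1 alone was called (limma adjusted p = 0.0318). The prior for the variances in limma then carried 0.422 degrees of freedom in place of 5.33. When just the 3893 genes that never left the floor were removed, it carried 2.35, and again 5 chain genes were lower and 1 higher.

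**Figure D1:**
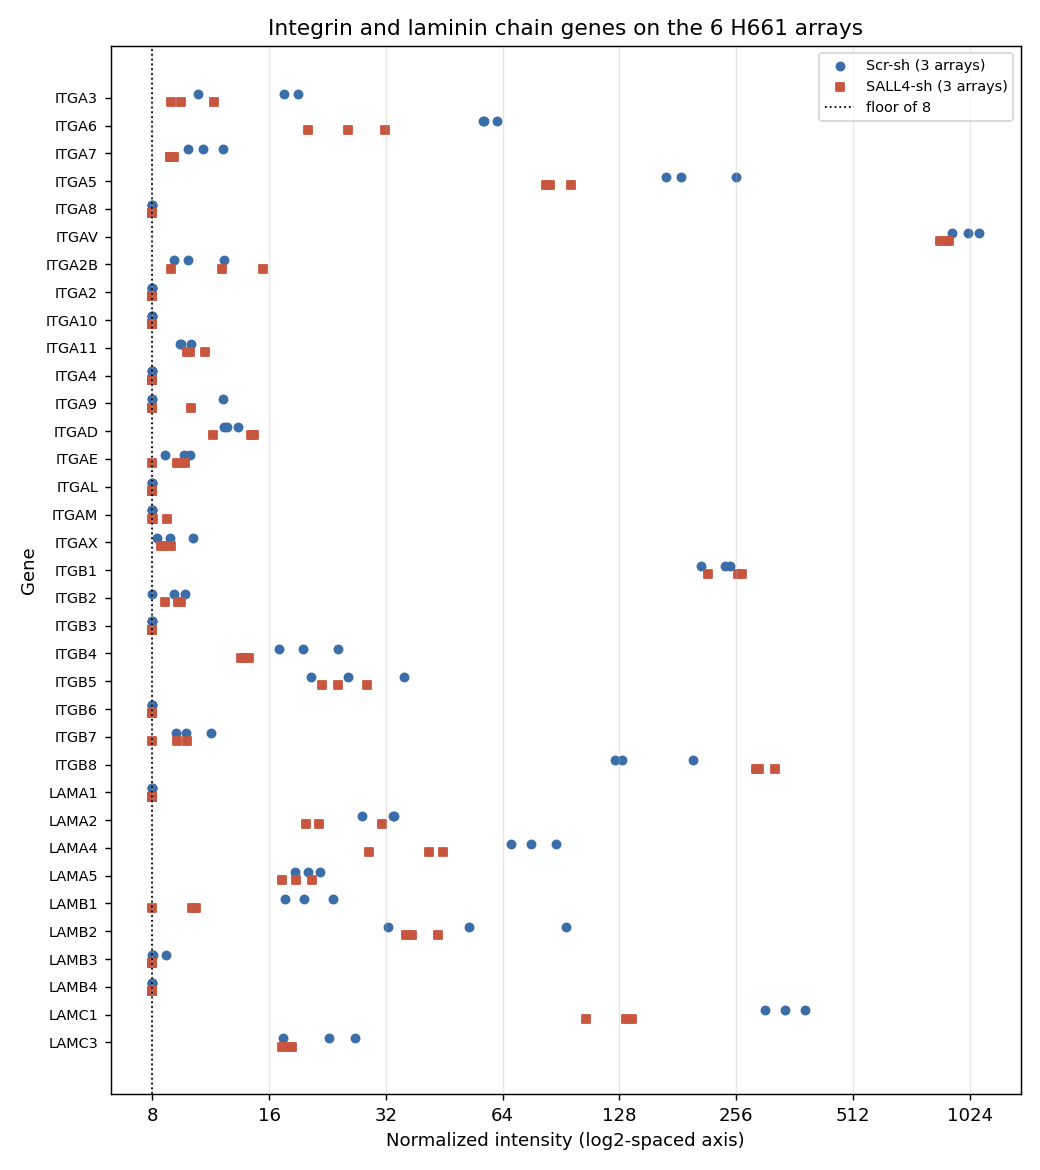
Normalized intensity (log2-spaced axis) of the 35 integrin and laminin chain genes on the 6 H661 arrays. Circles are the 3 Scr-sh arrays, squares the 3 SALL4-sh arrays and the dotted line the floor of 8. ITGA5, ITGA6, LAMA4, LAMB1 and LAMC1 have their SALL4-sh values below their Scr-sh values and ITGB8 above them. ITGA7, ITGAV and ITGB4, which were not called, also have all SALL4-sh values below Scr-sh. On every array 9 genes lie at the floor.

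**Figure D2:**
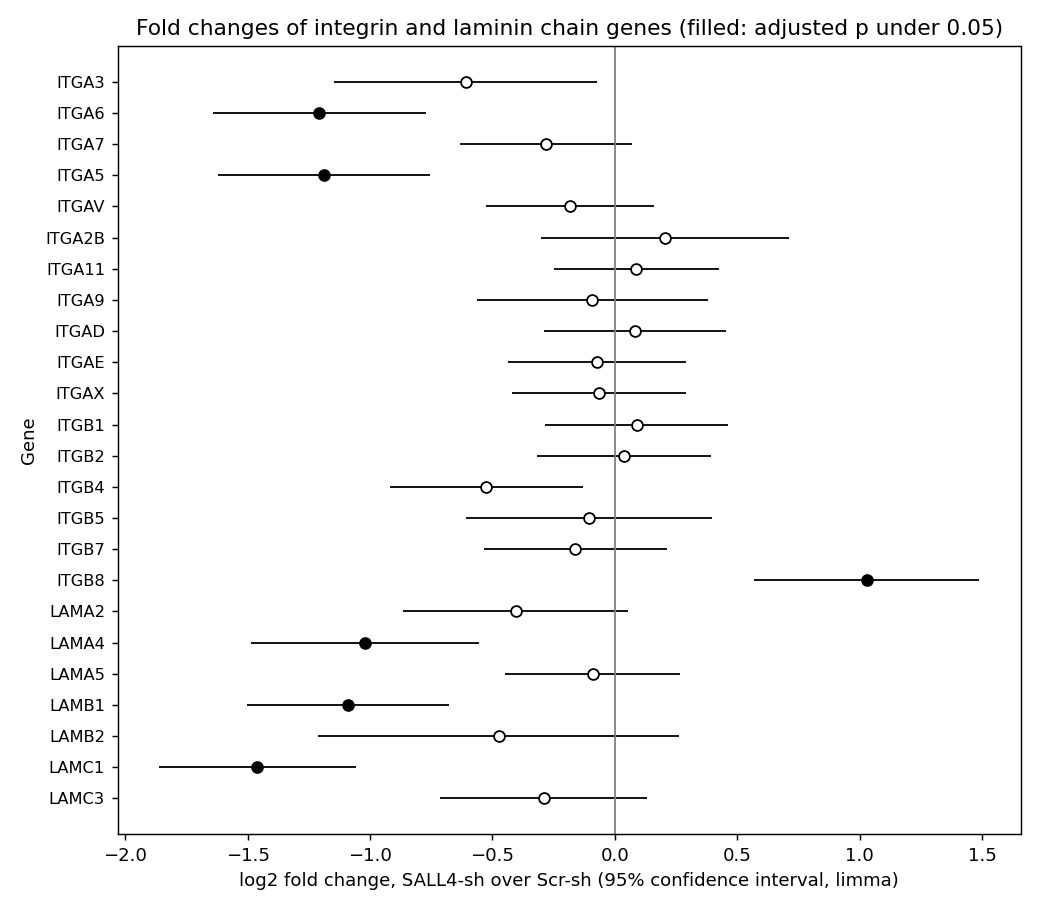
Difference in log2 intensity, SALL4-sh minus Scr-sh, of the 24 tested chain genes, in the order of their roles. Whiskers are 95% confidence intervals by limma with 3 arrays in each group, and a filled symbol marks a gene called at the threshold of 0.05. These are ITGA6, ITGA5, LAMA4, LAMB1 and LAMC1, between -1.46 and -1.02, and ITGB8 at 1.03.

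The start regions of the 6 called genes are shown because the 5 that fell and the 1 that rose could be compared in sequence. They are the 250 bases before the start of each gene in RefSeq (GRCh38.p14), written 5′ to 3′ on the strand of the gene. Capitals mark matches, on either strand, to the GC box GGGCGG, the CCAAT box CCAAT, the TATA box TATAAA, the AP-1 motif TGANTCA and the TEAD motif GGAATG. ITGA6 has 2 listed starts, of which the upstream one is used, since the window of the other lies inside the gene.
LAMA4 (chr6:112254568-112254817, minus strand): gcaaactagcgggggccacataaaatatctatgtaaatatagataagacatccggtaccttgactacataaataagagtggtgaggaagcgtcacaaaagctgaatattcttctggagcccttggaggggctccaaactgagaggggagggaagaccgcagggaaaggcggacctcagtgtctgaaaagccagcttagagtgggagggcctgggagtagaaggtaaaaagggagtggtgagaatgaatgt
LAMB1 (chr7:108003162-108003411, minus strand): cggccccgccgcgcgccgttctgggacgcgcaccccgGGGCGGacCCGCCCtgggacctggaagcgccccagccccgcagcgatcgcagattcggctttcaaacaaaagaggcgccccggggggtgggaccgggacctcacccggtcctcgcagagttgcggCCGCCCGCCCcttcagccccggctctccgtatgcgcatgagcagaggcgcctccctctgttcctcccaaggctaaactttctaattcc
LAMC1 (chr1:183023170-183023419, plus strand): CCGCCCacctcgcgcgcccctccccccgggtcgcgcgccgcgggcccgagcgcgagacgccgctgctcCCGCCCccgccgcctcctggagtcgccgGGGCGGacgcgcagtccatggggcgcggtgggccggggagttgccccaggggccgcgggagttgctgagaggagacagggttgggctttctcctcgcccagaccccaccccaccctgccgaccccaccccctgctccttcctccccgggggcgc
ITGA5 (chr12:54419267-54419516, minus strand): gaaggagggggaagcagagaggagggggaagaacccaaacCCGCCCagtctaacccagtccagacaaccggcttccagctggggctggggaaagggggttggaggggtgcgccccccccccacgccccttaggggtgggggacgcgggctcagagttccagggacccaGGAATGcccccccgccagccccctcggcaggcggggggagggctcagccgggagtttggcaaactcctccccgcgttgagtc
ITGA6 (chr2:172427086-172427335, plus strand): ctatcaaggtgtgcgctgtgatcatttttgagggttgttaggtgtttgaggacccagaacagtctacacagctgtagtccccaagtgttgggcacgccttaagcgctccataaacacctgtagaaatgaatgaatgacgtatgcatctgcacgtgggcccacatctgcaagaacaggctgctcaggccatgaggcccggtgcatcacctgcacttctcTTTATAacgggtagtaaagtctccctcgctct
ITGB8 (chr7:20330650-20330899, plus strand): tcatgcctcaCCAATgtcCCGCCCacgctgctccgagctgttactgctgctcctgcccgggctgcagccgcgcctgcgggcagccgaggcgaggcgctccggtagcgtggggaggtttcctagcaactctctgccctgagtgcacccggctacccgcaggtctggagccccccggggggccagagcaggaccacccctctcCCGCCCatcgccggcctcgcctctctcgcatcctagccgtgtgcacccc

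The window of LAMC1 held 3 GC boxes, that of LAMB1 4, of which 2 overlap, that of ITGA5 1 and that of ITGB8 2. The window of ITGA6 shown here held none but had a TATA box, read on the opposite strand, 32 bases before the start (10.7% of all windows), and the window of its downstream start held 3 GC boxes. LAMA4 had no match to any of the 5 motifs. The GC box occurred in 42.6% of all 35116 RefSeq start windows of the same length, so its presence in genes of both directions sets none of them apart. ITGA5 had 1 TEAD motif (11.9% of all windows) and ITGB8 1 CCAAT box (32%), and no window of the 6 genes held the AP-1 motif (6.57%). These matches describe letters and not binding.

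LAMC1, the gamma chain shared by most laminin trimers, had the largest measured fold change among the 24 genes, of which LAMB1 was partly at the floor. It read 303, 386 and 341 in Scr-sh and 105, 138 and 133 in SALL4-sh. The 2 groups lay far apart, with the highest SALL4-sh array at 138 and the lowest Scr-sh array at 303. The log2 fold change was -1.46 (SE, the standard error, 0.18; limma adjusted p = 0.00204). By an exact permutation test of the 6 arrays, two-sided, p was 0.1, which is the lowest value this number of arrays can give, and the same held for each gene below whose groups did not overlap. LAMC1 was also called with any 1 array left out and with the analysis of variance that the study names. LAMC3, the other gamma chain measured, read 22.8, 17.4 and 26.6 in Scr-sh and 18.4, 17.2 and 18.2 in SALL4-sh. Its groups overlapped, and its log2 fold change of -0.29 (95% confidence interval -0.71 to 0.13) was not called.

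LAMB1, the beta chain of many embryonic and tissue laminins, was weak. Its intensity was 19.7, 17.6 and 23.4 in Scr-sh and 10.4, 8 and 10.1 in SALL4-sh. The SALL4-sh values lay at or near the floor and all below Scr-sh. Since SALL4-sh replicate 2 stood at the floor, the log2 fold change of -1.09 (SE 0.18, limma adjusted p = 0.00661) may understate the difference. LAMB2, the beta chain of synaptic and kidney laminins, read 93.3, 32.5 and 52.3 in Scr-sh and 43.6, 36.1 and 37.4 in SALL4-sh. Here Scr-sh replicate 1 stood apart from the other two, the groups overlapped, and the log2 fold change of -0.48 had a 95% confidence interval of -1.21 to 0.26. It was -0.08 without Scr-sh replicate 1 and -0.84 without Scr-sh replicate 2, and was not called in either case. LAMB3, a beta chain of epithelial laminin, did not exceed 8.66 on any array, and LAMB4, the neighbour of LAMB1 on its chromosome, stood at the floor on all 6.

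LAMA4, an alpha chain typical of endothelium and mesenchyme, read 87.9, 75.9 and 67.1 in Scr-sh and 44.9, 28.9 and 41.3 in SALL4-sh. The arrays of the 2 groups did not overlap, although those within SALL4-sh differed more than for LAMC1. The log2 fold change was -1.02 (SE 0.21, limma adjusted p = 0.0147), and without Scr-sh replicate 1 the adjusted p was 0.0507. LAMA2, the alpha chain of muscle laminin, had 33.4, 33.7 and 27.8 in Scr-sh and 21.6, 31.2 and 19.97 in SALL4-sh, with SALL4-sh replicate 2 inside the Scr-sh range. Its log2 fold change was -0.41 (95% confidence interval -0.86 to 0.05). LAMA5, the alpha chain of most adult epithelial basement membranes, ran from 18.7 to 21.6 in Scr-sh and from 17.3 to 20.7 in SALL4-sh, and its log2 fold change was -0.09 (95% confidence interval -0.45 to 0.27). LAMA1, the alpha chain of the early embryo, had no value above the floor. Of the 10 laminin chains measured, 7 were tested, and 3 were called lower (5.54% of all genes tested were). The log2 fold changes of the 7 were all below 0, but the 95% confidence intervals of LAMA2, LAMA5, LAMB2 and LAMC3 included 0.

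LAMA4 and ITGA5 are also expressed by fibroblasts. Of 9 fibroblast markers measured, 6 were tested, and 2 were lower (33.3%, against 5.54% of all genes tested) and none higher, namely COL1A2, a chain of type I collagen (log2 fold change -0.79, limma adjusted p = 0.0301), and THY1, a surface protein of fibroblasts (-0.76, limma adjusted p = 0.0188). Without filter neither was called (adjusted p = 0.132 and 0.0571). COL1A2 also missed the threshold without any 1 of Scr-sh replicates 2 and 3 and SALL4-sh replicates 2 and 3 (adjusted p = 0.0576 to 0.113), and THY1 without any 1 array other than Scr-sh replicate 2 (adjusted p = 0.0541 to 0.0751). COL3A1, a chain of type III collagen, had a log2 fold change of 0.24 (95% confidence interval -0.14 to 0.62) and COL1A1 one of -0.48 (-0.82 to -0.14), and neither was called in the main fit. Without filter COL1A1 was the 1 fibroblast marker called lower (limma adjusted p = 0.0387), as were 244 of all 18404 genes. With just the genes that never left the floor removed, 3 fibroblast markers were lower, as were 610 of 14511 genes. The summed intensity of the 9 markers was 495 to 558 in Scr-sh and 351 to 427 in SALL4-sh, and DCN and FAP never left the floor, nor did LUM in SALL4-sh. All 4 endothelial markers, PECAM1, CDH5, KDR and TEK, stood at the floor throughout. The part of fibroblast-type expression in the change of the laminin chains was not tested.

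Of the alpha chains that bind laminin, ITGA6 read 57.1, 61.7 and 57.4 in Scr-sh and 20.2, 31.9 and 25.5 in SALL4-sh. The Scr-sh arrays lay close together and well above all SALL4-sh arrays. The log2 fold change was -1.21 (SE 0.19, limma adjusted p = 0.00543). ITGA3, the alpha chain of another laminin receptor of epithelia, had 19.0, 10.5 and 17.4 in Scr-sh and 9.51, 11.5 and 8.93 in SALL4-sh. Scr-sh replicate 2 fell among the SALL4-sh values, and the log2 fold change of -0.61 was not called (limma adjusted p = 0.144). Without that array it was -0.87 and passed (limma adjusted p = 0.0164). ITGA7, the laminin receptor chain of muscle, lay between 9.88 and 12.2 in Scr-sh and between 8.88 and 9.12 in SALL4-sh, so that the groups did not overlap at a log2 fold change of -0.28 that was not called (limma adjusted p = 0.316).

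Among the alpha chains of receptors for the RGD motif of fibronectin and vitronectin, ITGA5 read 255, 185 and 169 in Scr-sh and 95.8, 84.8 and 82.6 in SALL4-sh. All Scr-sh arrays were above all SALL4-sh arrays, and Scr-sh replicate 1 was the highest. The log2 fold change was -1.19 (SE 0.19, limma adjusted p = 0.00566). ITGAV, the alpha chain that pairs with ITGB1, ITGB3, ITGB5, ITGB6 and ITGB8, read 1082, 1011 and 920 in Scr-sh and 887, 905 and 857 in SALL4-sh. These groups did not overlap either, but the log2 fold change was only -0.18 (95% confidence interval -0.53 to 0.16, limma adjusted p = 0.537). ITGA8 had no value above the floor, and ITGA2B, the platelet fibrinogen receptor chain, lay between 8.93 and 15.5 with overlapping groups.

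The beta chains did not move together. ITGB8 read 125, 198 and 130 in Scr-sh and 323, 287 and 294 in SALL4-sh, and thus was higher on every SALL4-sh array. Its log2 fold change was 1.03 (SE 0.20, limma adjusted p = 0.0137). This call was lost without Scr-sh replicate 3 (adjusted p = 0.0544), SALL4-sh replicate 1 (0.0549) or SALL4-sh replicate 3 (0.0536 from limma in each case). It was also lost without filter (limma adjusted p = 0.104) and with the one-way analysis of variance (adjusted p = 0.121). The log2 fold change of ITGB8 stayed at 0.91 or more under every alternative tried. ITGB1, the partner of ITGA5, ITGA6 and most other alpha chains, read 207, 240 and 247 in Scr-sh and 216, 258 and 265 in SALL4-sh. The groups overlapped, and the log2 fold change of 0.09 (95% confidence interval -0.28 to 0.46) turned to -0.0092 after cyclic loess. ITGB4, which pairs with ITGA6 in hemidesmosomes, the anchors of epithelial cells, read 24.1, 16.9 and 19.5 in Scr-sh and 13.9, 14.2 and 13.6 in SALL4-sh. Its values did not overlap, but the log2 fold change of -0.53 missed the threshold (limma adjusted p = 0.0905) and passed it without Scr-sh replicate 2 (limma adjusted p = 0.0416). ITGB5, a partner of ITGAV, ran from 20.6 to 35.7 in Scr-sh and from 21.9 to 28.6 in SALL4-sh with overlapping groups, and ITGB3 and ITGB6 stood at the floor.

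**Figure D3:**
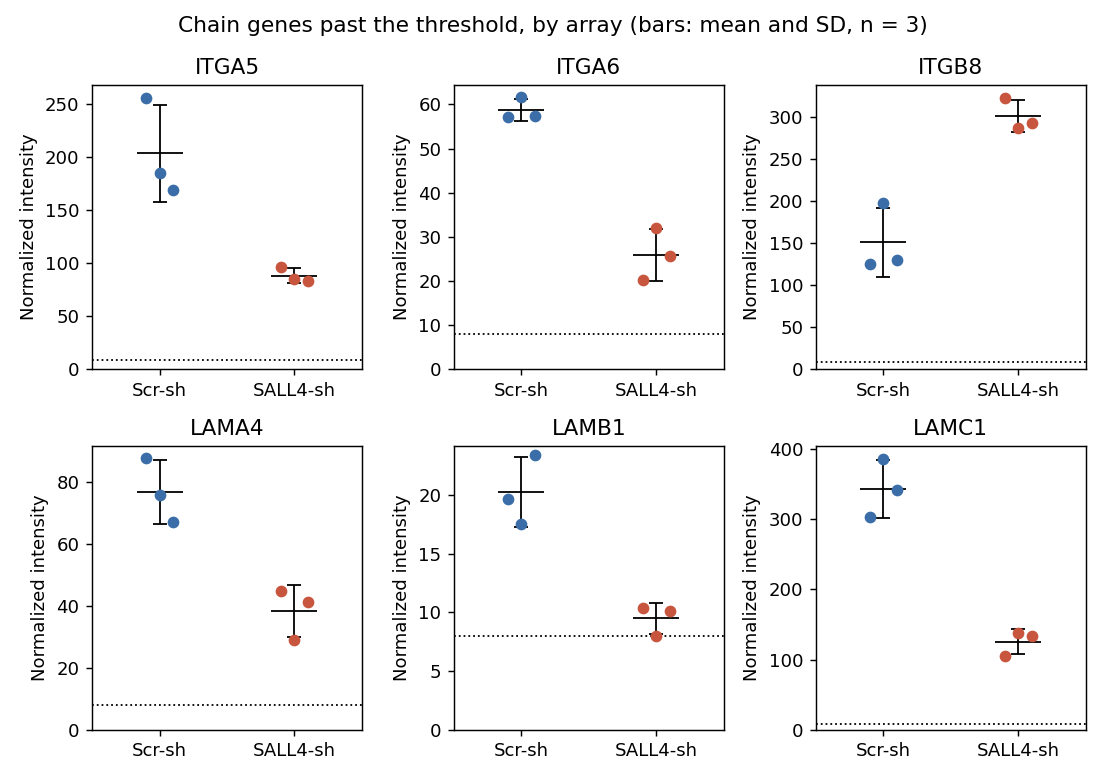
Normalized intensity (linear axis) of the 6 chain genes past the threshold, by array. Each point is 1 array, and the bar with whiskers gives each group's mean with its SD (n = 3). The dotted line marks the floor of 8. ITGB8 is higher in SALL4-sh (301 against 151 on average) and the other 5 are lower, as LAMC1 with 125 against 344, and LAMB1 comes down to the floor.

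The remaining chains were dim. ITGA2 and ITGA10, which bind collagen, and ITGA4, which binds VCAM1 and fibronectin, stood at the floor on all 6 arrays, as did ITGAL. ITGA11, a collagen receptor chain of fibroblasts, lay between 9.41 and 10.9, and ITGA9, which binds tenascin and VCAM1, reached 12.2 on 1 array and 10.0 on another and stood at the floor on the others. The chains of leukocyte integrins were close to the floor as well. ITGAM and ITGAX, next to each other on their chromosome, did not exceed 8.72 and 10.2, ITGAD beside them lay between 11.5 and 14.6, ITGAE between 8 and 10.0, ITGB2, the shared beta chain of leukocyte integrins, between 8 and 9.71, and ITGB7 between 8 and 11.3. None of these chains was called. PTPRC, the general leukocyte marker, was at the floor throughout, as were 6 others of the 13 leukocyte markers measured. Not all of the list was silent. TYROBP averaged 88.0 ± 25.3 in Scr-sh and 72.5 ± 18.1 in SALL4-sh (SD, n = 3). CD68 averaged 58.5 ± 21.3 and 33.0 ± 2.45, and NKG7 25.4 ± 1.28 and 30.5 ± 5.13. Of the 4 leukocyte markers tested, none was called.

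The cytoplasmic partners of integrins were read from a list of 34 adaptors and regulators, of which 32 were measured and 30 tested. Of these, 5 were lower and none higher, with a median log2 fold change of -0.13. The share called lower was 16.7%, against 5.54% of all genes tested, of which 11.5% were called in either direction. TNS3, a tensin that links beta chains to actin, fell with a log2 fold change of -1.40, which 2 SALL4-sh values at the floor may understate. FERMT2, a kindlin that activates integrins together with talin, fell from 177 ± 20.7 (SD, n = 3) to 72.5 ± 7.18 (SD, n = 3), a log2 fold change of -1.28 (limma adjusted p = 0.00248). PTK2, the focal adhesion kinase, had one of -1.24. PARVA and LIMS1, which form a complex with the integrin-linked kinase ILK, fell with log2 fold changes of -0.93 (limma adjusted p = 0.0168) and -0.77 (limma adjusted p = 0.0415). ILK itself had 0.22 (95% confidence interval -0.35 to 0.80), and VCL, which encodes vinculin, -0.03 (95% confidence interval -0.40 to 0.34). Groups were fully apart, with SALL4-sh the lower, for 10 of the 30 (33.3%), against 13.1% of all genes tested. With SALL4-sh the higher they were apart for 0, against 15.7%. Some adaptors that were not called thus also had SALL4-sh values all below Scr-sh. Without filter FERMT2 and PTK2 were called (limma adjusted p = 0.0285 and 0.00485), and TNS3, PARVA and LIMS1 were not (0.0502, 0.106 and 0.171). Without Scr-sh replicate 3 or SALL4-sh replicate 2 the count fell to 3, with PARVA and LIMS1 lost. LIMS1 kept its call with SALL4-sh replicate 1 left out and lost it with any other array left out (limma adjusted p = 0.0683 to 0.145).

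Of 24 ligands of integrins other than laminins and collagens, all were measured and 16 were tested. Among these 2 were called (12.5%), a share close to the 11.5% of all genes tested. CCN2, a matricellular protein bound by several integrins, was lower (log2 fold change -0.94, limma adjusted p = 0.0338), and CDH1, which encodes E-cadherin and is the ligand of the integrin with ITGAE, was higher (0.91, with 1 Scr-sh value at the floor). The CCN2 call was lost without Scr-sh replicate 3 (adjusted p = 0.0584) or any 1 of the SALL4-sh arrays (0.0591 to 0.128 from limma), and without filter (0.190). FN1, which encodes fibronectin, the ligand of the receptor with ITGA5, stood at the floor on all 6 arrays, as did TNC and 5 others. THBS1, which encodes thrombospondin, was bright and had a log2 fold change of 0.06 (95% confidence interval -0.29 to 0.42). TGFB1, whose latent form is a ligand of the receptor of ITGAV and ITGB8, had 0.48 (95% confidence interval -0.04 to 0.99).

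Of 17 genes of laminin partners, other laminin receptors and tetraspanins, 14 were measured and 13 tested, and 1 was lower and none higher. The share called lower was 7.69%, against 5.54% of all genes tested, of which 11.5% were called in either direction. Groups were fully apart, with SALL4-sh the lower, for 5 of the 13 (38.5%), against 13.1% of all genes tested. With SALL4-sh the higher they were apart for 3 (23.1%), against 15.7%. The gene called was CD151, a tetraspanin that binds ITGA3 and ITGA6. CD151 read 105, 78.6 and 81.0 in Scr-sh and 50.4, 51.8 and 37.0 in SALL4-sh, with no overlap (log2 fold change -0.93, limma adjusted p = 0.0175). It missed the threshold without Scr-sh replicate 1 (adjusted p = 0.0572), without SALL4-sh replicate 3 (0.0686) and without filter (0.109 from limma in each case). NID1, or nidogen, which joins the gamma chain LAMC1 to collagen IV, had a log2 fold change of 0.38 (95% confidence interval -0.04 to 0.80). Of 4 hemidesmosome partners tested, none was called with limma, nor at an unadjusted p under 0.05, nor with the analysis of variance. The 2 with the smallest adjusted p were DST, a plakin (0.33, 95% confidence interval -0.06 to 0.73), and KRT14, a basal keratin (limma adjusted p = 0.699).

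**Figure D4:**
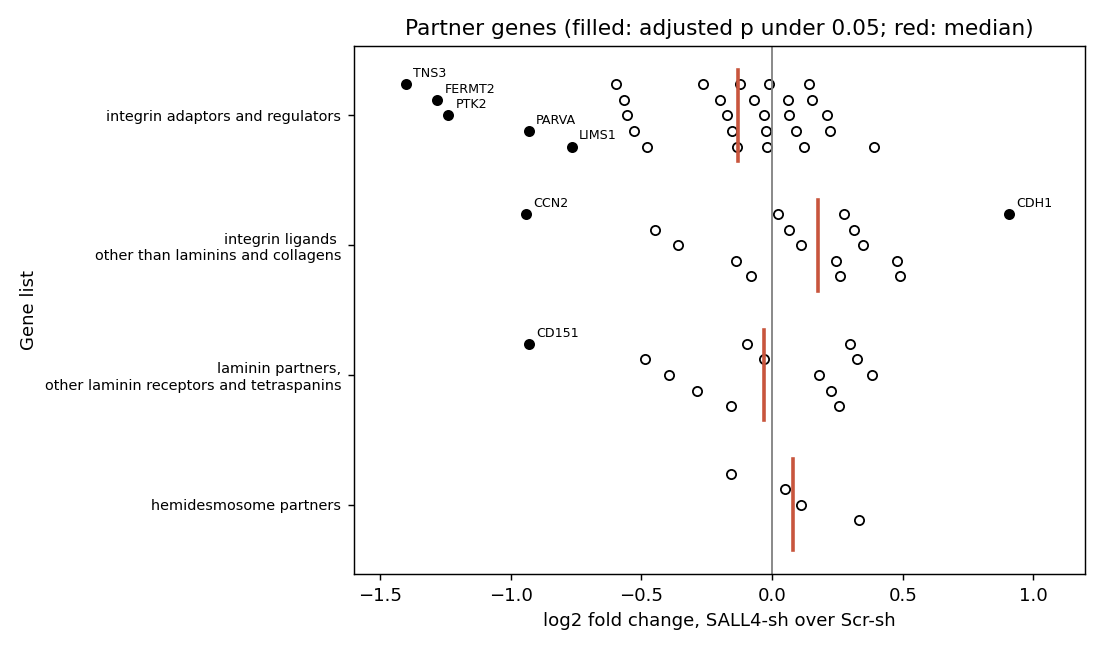
Difference in log2 intensity, SALL4-sh minus Scr-sh, of the tested genes of 4 lists of integrin and laminin partners. Each point is a gene, filled and named where it passed an adjusted p of 0.05 from limma (n = 3 arrays per group), and red bars are list medians. TNS3, FERMT2, PTK2, PARVA, LIMS1, CCN2 and CD151 lie between -1.40 and -0.77, and CDH1 at 0.91.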

How the data were processed

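The deposited table holds intensity values, normalized by the authors and on a linear scale, of 32321 probe sets on 6 arrays. RMA is the tool in the submitters' processing notes, with no version in the sources used here. Values under 8 stand at 8. Gene symbols came from the platform annotation. Only probe sets with exactly 1 symbol (19158) were used, and the one with the highest mean carried each gene. Each of the 35 chain genes had 1 probe set. Log2 values entered a linear model with moderated variances (limma 3.58.1, R 4.3.3, Benjamini-Hochberg adjustment), with genes up to the 25th percentile of mean log2 intensity filtered out. The fit was tested on simulated data. Precision is limited by the 3 arrays per group. No batch is named in the labels.

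The members, the gene lists, the filter and the alternatives were chosen with earlier results of these data known. All chain genes could be named. Of each partner list, the genes past the threshold were named, up to 6, and where none passed the 2 with the smallest adjusted p. ILK, VCL, FN1, TNC, THBS1, TGFB1, NID1 and the marker genes were named outside this rule, after their values were seen. Alternatives were median centring, quantile normalization and cyclic loess, other filters, a robust, trended variance prior, weighting of arrays, the study's one-way analysis of variance, unadjusted p, the replicate number as a block, averaging of all probe sets of a gene, and each array left out in turn. Start regions were taken from RefSeq, in which 24 of the 35 chain genes, all 6 called ones among them, had a match.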

Additional observations from a re-analysis of the deposited data

How the results depend on the processing

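The fold changes of ITGA5, ITGA6, ITGB8, LAMA4, LAMB1, LAMC1 and SALL4 kept their sign under every alternative that could be fitted, and SALL4 passed the threshold in each (adjusted p = 0.000253 to 0.0278 over the alternatives). Without filter 0 chain genes were higher and 1 lower, and the one-way analysis of variance also called 0 higher and 1 lower. At an unadjusted p under 0.05 from limma, 1 was higher and 7 lower, and 24.7% of all genes tested passed (1875 higher and 1537 lower). Over all genes, no filter gave 218 higher and 244 lower, and the one-way analysis of variance 113 and 144, where the main test gave 821 and 764. With 1 array left out, 0 to 1 chain genes were higher and 4 to 7 lower, and 323 to 1115 of all genes were higher and 383 to 830 lower. The median log2 fold change of the chain genes tested was -0.35 with the 50th percentile filter, which left 12 of them and takes out LAMB1, and -0.21 to -0.14 with 1 array left out. The sign of a fold change that was not called turned for ITGB1 after cyclic loess (-0.0092) and for ITGB2 with array weights (-0.018). It also turned with 1 array left out for ITGA9, whose values ran from -0.20 to 0.11, ITGAE (-0.14 to 0.0087), ITGAX (-0.14 to 0.021), ITGB2 (-0.041 to 0.098) and ITGB5 (-0.29 to 0.11). Same-numbered arrays of the groups deviated together with correlations of 0.144, 0.113 and -0.00089. Those of replicates 1 and 2 were higher than that of any differently numbered pair, while Scr-sh replicate 3 correlated best with SALL4-sh replicate 1 (0.034). Whether the replicate numbers pair the samples cannot be told from these values, and the main fit did not use them. With the replicate number as a block, again 1 chain gene was higher and 5 lower, the median was -0.17, SALL4 had -1.97, and 903 of all genes were higher and 803 lower. Cyclic loess moved the share of higher among all calls the most of the 3 scalings, with 669 higher and 844 lower. Levels below the floor of 8 cannot be compared.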
